A study of Mus musculus with 4 samples.

Results

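The haematopoietic cytokine receptors described here were 8 genes taken by symbol from the deposited gene table: Kit, Flt3, Epor, Csf1r, Csf3r, Csf2rb, Il7r and Il3ra. They are 8 of 31053 genes in the matrix, of which 19010 had at least 1 count in the cells kept. All 8 were detected, with totals between 882 counts for Flt3 and 10675 for Il7r. The samples were trabecular bone cells from the tibia, taken at its proximal and distal ends in 8-week-old mice, freed with dispase, collagenase and trypsin (1 hr) and profiled by droplet single-cell RNA sequencing. The only group combines Col10a1Cre, Rosa26-Tdtomato, Irx3 +/Δ and Irx5 +/-, a heterozygous control that received no PTH (parathyroid hormone). The Col10a1 promoter drives Cre in hypertrophic chondrocytes of cartilage and is not a driver for blood cells. Whether every cell carried the Irx3 Δ allele was not tested. The 4 sample records were pooled in 1 matrix with 1 barcode suffix and the labels do not call them 4 animals, so they count as 1 library, no test between conditions exists and no p-value is given.

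Blood cells are made continuously in the marrow from stem and progenitor cells, and cytokines acting through surface receptors keep each lineage alive and dividing. Kit, Flt3 and Csf1r are receptor tyrosine kinases, which phosphorylate themselves when stem cell factor, Flt3 ligand or the ligands Csf1 and Il34 bind. The other 5 lack a kinase of their own and signal through Janus kinases and Stat proteins. Epor and Csf3r bind erythropoietin and granulocyte colony-stimulating factor as pairs of identical chains. Csf2rb is the shared signalling chain for Il3, Il5 and Csf2 (granulocyte-macrophage colony-stimulating factor), Il3ra is the Il3-binding chain, and Il7r pairs with Il2rg for Il7 or with Crlf2 for Tslp.

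Counts are UMIs, unique molecular identifiers that count each captured RNA molecule once. Depth ranged from 500 to 80413 UMIs per barcode, and 10485 kept cells with a median of 4855 UMIs fell into 136 clusters. Clusters were named from marker genes that did not include any receptor, and all 8 receptors and their pathway genes were also left out of the genes used to cluster. The 14 named classes raised most of their own markers, from 9 of 11 in haematopoietic progenitor-like cells to 12 of 12 in B lineage-like cells. The same markers gave the names, so these counts are no independent check of them. Osteoblast-like cells, the one named class that is not of blood origin, numbered 46. A further 15 clusters with 643 cells (6.13%) stayed unnamed, and no cluster took the name megakaryocyte, stromal, endothelial or chondrocyte. Levels are CPM, the receptor's UMIs per 1000000 UMIs summed over a class, with exact Poisson 95% intervals. Shares of cells are given after each cell was thinned to 1000 UMIs, which left out shallower cells. All intervals cover counting error only. Because CPM is relative to all RNA of a class, each value is compared between classes for 1 gene and never between genes.

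**Figure D1:**
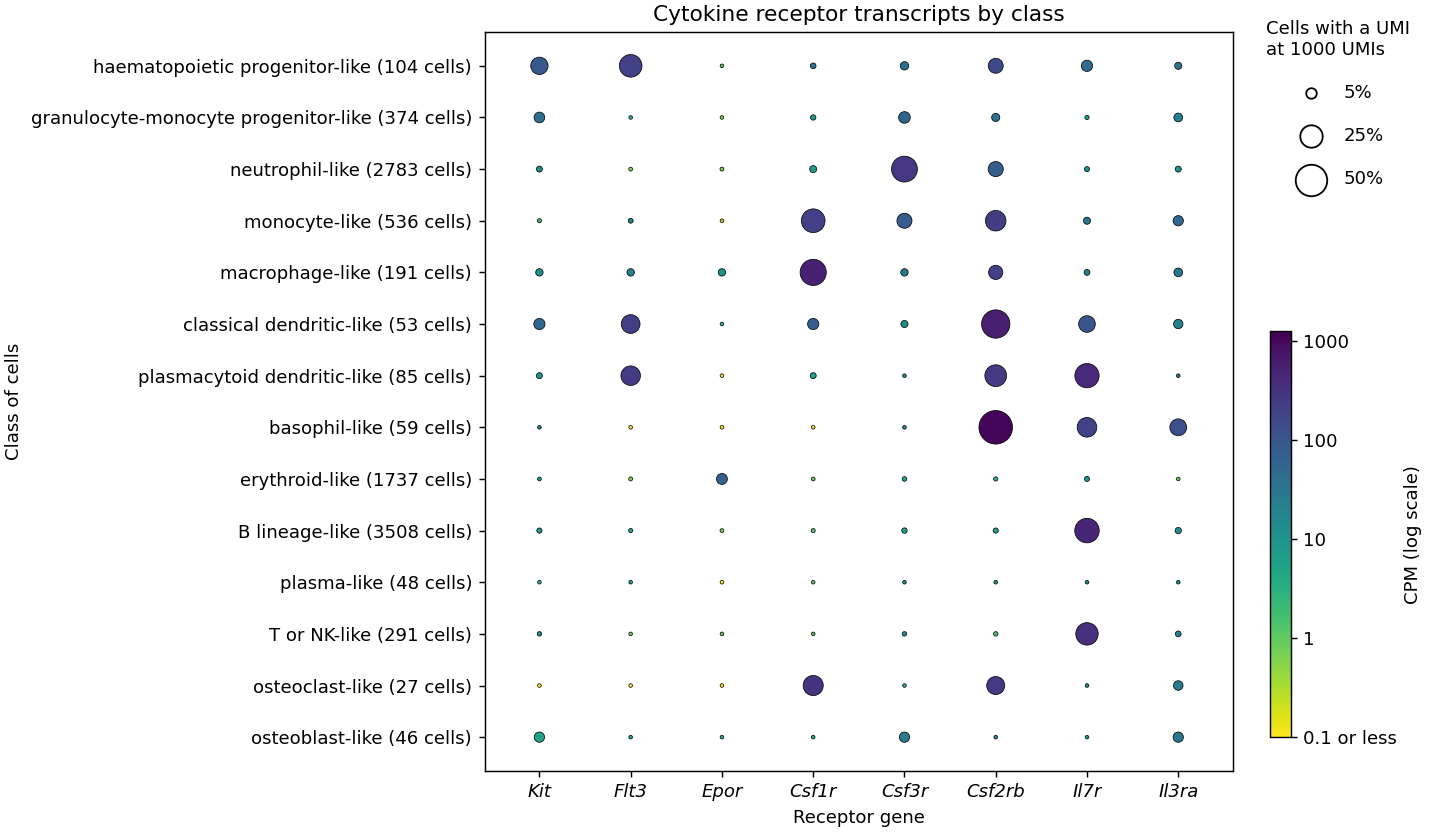
Transcripts of the 8 receptors (horizontal axis) in 14 classes of cells (vertical axis, with cell numbers). Colour gives CPM on a log scale, with 0.1 CPM or less in yellow, and dot area grows with the share of cells with a UMI after thinning to 1000 UMIs. Epor had 1 strong dot, in erythroid-like cells, whereas Csf2rb had dots in all the myeloid and dendritic classes, largest in basophil-like cells at 56.9% of cells.

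Kit (chromosome 5, 75574916 to 75656722, plus strand, GRCm38, the build also called mm10) encodes the receptor of stem cell factor. It was highest in haematopoietic progenitor-like cells, the class with stem and early progenitor markers, at 96.1 CPM (interval 82.2 to 112, 104 cells). Classical dendritic-like cells came next at 55.3 CPM (35.8 to 81.7) and granulocyte-monocyte progenitor-like cells after them at 42.7 CPM (38 to 47.8), with overlapping intervals. Neutrophil-like cells had 14.1 CPM, T or NK-like cells 13.8 CPM and B lineage-like cells 9.94 CPM, while erythroid-like cells had 5.99 CPM, monocyte-like cells 1.97 CPM and osteoclast-like cells 0 UMIs, which allows up to 4.75 CPM by the limit of 3 counts used throughout. After thinning, a Kit UMI was seen in 14.7% of haematopoietic progenitor-like cells (median depth 15141 UMIs) and 5.18% of granulocyte-monocyte progenitor-like cells, against 0.188% of monocyte-like cells (median depth 8069.0 UMIs) and 0.348% of T or NK-like cells. Both progenitor classes together had 53.5 CPM and all other named blood cells 9.84 CPM, a ratio of 5.44 (4.8 to 6.15). It was 9.71 in thinned cells, and 2.57 with a mitochondrial limit of 5%, where no cluster took the haematopoietic progenitor name. Granulocyte-monocyte progenitor-like cells also held neutrophil and erythroid RNA (S100a8 at 37763.2 CPM and 4.1% haemoglobin UMIs), whose part in the values of that class was not tested.

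Flt3 (chromosome 5, 147330741 to 147400489, minus strand), the receptor of Flt3 ligand, marked both early progenitors and dendritic cells. It had 213 CPM in haematopoietic progenitor-like cells (192 to 236), 240 CPM in plasmacytoid dendritic-like cells (204 to 281) and 221 CPM in classical dendritic-like cells (180 to 269), and these 3 intervals overlap. The next classes were far lower, with 21.7 CPM in macrophage-like cells, 18.1 CPM in monocyte-like cells and 3.71 CPM in B lineage-like cells. Granulocyte-monocyte progenitor-like cells had 2.44 CPM (1.42 to 3.9), and basophil-like and osteoclast-like cells had 0 UMIs, which allows up to 7.66 CPM in basophil-like and 4.75 CPM in osteoclast-like cells. Thinned shares were 25.5% of haematopoietic progenitor-like cells and 18.8% of plasmacytoid dendritic-like cells, against 0.074% of neutrophil-like cells (median depth 4386 UMIs). Haematopoietic progenitor-like cells exceeded all other named blood cells 29.3-fold (25.6 to 33.7), with 213 CPM against 7.26 CPM. With a mitochondrial limit of 5%, or without the second round of clustering, no cluster took the name and the ratio had no value. It was 16.9 with a mitochondrial limit of 30% and 61.1 in thinned cells. In macrophage-like cells 11 of the UMIs came from 4 cells of 1 cluster of 31 cells with a median of only 791 UMIs.

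Csf1r (chromosome 18, 61100598 to 61132149, plus strand), the receptor that macrophages and osteoclasts depend on, followed the mononuclear phagocytes. Macrophage-like cells had 544 CPM (484 to 609), osteoclast-like cells 312 CPM (270 to 358) and monocyte-like cells 210 CPM (198 to 222), and none of these intervals overlap. Classical dendritic-like cells had 79.7 CPM (55.8 to 110) and haematopoietic progenitor-like cells 32.2 CPM (24.4 to 41.7). Granulocyte-monocyte progenitor-like cells at 8.6 CPM and neutrophil-like cells at 7.8 CPM could not be told apart. After thinning, 34.4% of macrophage-like cells (median depth 963 UMIs, so that only 93 of 191 cells were deep enough) and 28.1% of monocyte-like cells had a UMI, against 0.174% of B lineage-like cells (median depth 3093 UMIs). Monocyte-like and macrophage-like cells together had 240 CPM and other named blood cells 8.48 CPM, a ratio of 28.3 (25.6 to 31.3). With a mitochondrial limit of 5% the ratio was 62.6, with at least 1500 UMIs per cell it was 52, and in thinned cells it was 43.6.

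Within monocyte-like cells, Csf1r differed between clusters from 114 to 757 CPM. The highest value came from 39 cells led by Cd300e, Adgre4 and Ace, genes of patrolling monocytes. Clusters led by Fn1, Vcan and F13a1, or by Ccl2 and Itga1, which are genes of classical monocytes, had 201 and 118 CPM. Both values lay below 259 CPM, the median of the 9 monocyte-like clusters, of which the others are not described here. Macrophage-like clusters had 641 CPM where Gdf15, C1qc and Mrc1 led (66 cells), 327 CPM where Cd5l, Fcna and Spic, genes of red-pulp-type macrophages, led (94 cells), and 101 CPM in the shallow cluster with the Flt3 UMIs. An unnamed cluster of 48 cells led by Cd209a and Slamf8 had 414 CPM of Csf1r beside 55.1 CPM of Flt3.

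Epor (chromosome 9, 21958897 to 21963506, minus strand), the erythropoietin receptor, was close to restricted to erythroid-like cells. These had 66.9 CPM (62.4 to 71.7) from 827 UMIs, and all other named blood cells together had 0.76 CPM from 42 UMIs. The ratio was 88 (64.6 to 123). It was 21.8 with a mitochondrial limit of 5%, and 174 with the 50 most abundant genes left out of the denominator, since haemoglobin made up 57.7% of erythroid-like UMIs. Macrophage-like cells had 10.9 CPM from 6 UMIs, and no other class exceeded 2.6 CPM. A UMI was seen in 5.43% of thinned erythroid-like cells (median depth 6226 UMIs), against 0.0872% of B lineage-like cells (median depth 3093 UMIs). Haematopoietic progenitor-like cells had 1.13 CPM, with an interval (0.137 to 4.08) that overlaps the B lineage-like one.

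Csf3r (chromosome 4, 126024550 to 126044440, plus strand), the receptor of granulocyte colony-stimulating factor, was highest in neutrophil-like cells at 285 CPM (277 to 293). Monocyte-like cells had 79.9 CPM (72.7 to 87.7), granulocyte-monocyte progenitor-like cells 62.6 CPM (56.9 to 68.8) and haematopoietic progenitor-like cells 37.3 CPM (28.8 to 47.5), in non-overlapping steps. B lineage-like cells had 5.6 CPM and erythroid-like cells 4.21 CPM. The thinned share was 33.5% of neutrophil-like cells, 10.9% of monocyte-like cells and 6.27% of granulocyte-monocyte progenitor-like cells, against 0.843% of B lineage-like cells. Neutrophil-like cells exceeded all other named blood cells 12.4-fold (11.6 to 13.2), with 285 CPM against 23 CPM. This ratio depended on how cells were weighted and filtered, from 4.49 with a mitochondrial limit of 5% and 7.28 with at least 1500 UMIs per cell to 38 in thinned cells.

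Levels of Epor, Csf3r, Il7r and Kit also changed with stage, as given below, and promoters are printed here for Epor and Csf3r only. Both come from the RefSeq promoter table of GRCm38.p6, run from 250 bases before to 50 bases after RefSeq's start, and are written 5′ to 3′ on the gene's strand. RefSeq's start differs from the gene start given above, which is GENCODE's. For Epor it is base 21963576, 70 bases upstream of GENCODE's, so that the window holds no base of the GENCODE gene, and for Csf3r it is base 126024659, 109 bases downstream, inside the GENCODE gene. For 6 of the 8 receptors an entry was used. Capitals mark matches on either strand to a GATA motif (A or T followed by GATAA or GATAG), the letters bound by erythroid Gata1, or to an ETS motif (AGGAAG or CGGAAG), bound by myeloid PU.1 and related factors. No letters of these motifs overlap each other here.
Epor, chr9:21963527-21963826, minus strand: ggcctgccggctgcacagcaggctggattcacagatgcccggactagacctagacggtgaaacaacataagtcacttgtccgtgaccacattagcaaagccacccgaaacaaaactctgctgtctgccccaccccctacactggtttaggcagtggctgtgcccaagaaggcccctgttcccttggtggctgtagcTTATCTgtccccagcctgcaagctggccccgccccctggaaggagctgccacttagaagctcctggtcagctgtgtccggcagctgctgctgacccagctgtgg
Csf3r, chr4:126024409-126024708, plus strand: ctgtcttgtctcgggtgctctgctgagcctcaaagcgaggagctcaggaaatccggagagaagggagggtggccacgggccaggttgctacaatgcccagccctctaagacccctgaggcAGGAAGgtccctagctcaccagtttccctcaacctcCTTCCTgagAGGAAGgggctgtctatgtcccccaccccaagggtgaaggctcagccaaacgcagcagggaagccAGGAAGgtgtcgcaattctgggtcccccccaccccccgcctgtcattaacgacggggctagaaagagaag
The Epor window holds 1 GATA match, at -54 bases from RefSeq's start, and 0 ETS matches. The Csf3r window holds 4 ETS matches, at -130, -94, -85 and -20 bases from RefSeq's start, and 0 GATA matches. Among the other promoters used, each Kit window and the Il7r window hold 1 ETS match and 0 GATA matches. The Flt3 window holds 0 of either, and the Il3ra window 1 of each. Over 32851 mouse promoters of the same length, 29.8% hold a GATA match and 46.5% an ETS match, so either match is common. A match describes the letters and no binding was measured.

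Csf2rb (chromosome 15, 78325752 to 78353847, plus strand), the common beta chain, was carried across the myeloid and dendritic classes. Basophil-like cells stood apart at 1103.2 CPM (1001.6 to 1212.3), followed by classical dendritic-like cells at 560 CPM (493 to 633). Osteoclast-like cells had 250 CPM, plasmacytoid dendritic-like cells 240 CPM, monocyte-like cells 232 CPM and macrophage-like cells 207 CPM, each with an interval overlapping the next. Haematopoietic progenitor-like cells had 156 CPM, neutrophil-like cells 78.4 CPM and granulocyte-monocyte progenitor-like cells 36.5 CPM, whereas B lineage-like cells had 6.33 CPM, erythroid-like cells 2.91 CPM and T or NK-like cells 1.54 CPM. A UMI was seen in 56.9% of thinned basophil-like cells (median depth 4726 UMIs), against 0.242% of erythroid-like cells (median depth 6226 UMIs). The myeloid classes together had 115 CPM and the lymphoid and erythroid classes 4.9 CPM, a ratio of 23.5 (20.1 to 27.6), which was 6.99 with a mitochondrial limit of 5% and 10.4 without the second round of clustering. Csf2rb2, its neighbour on chromosome 15 and in mice a near-identical chain used by the Il3 receptor, had 626 CPM in basophil-like cells (550 to 709), 178 CPM in plasmacytoid dendritic-like cells and 93 CPM in classical dendritic-like cells. Reads from the paired genes can be assigned to either or dropped, so the split between Csf2rb and Csf2rb2 is uncertain.

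Il3ra (chromosome 14, 14346275 to 14356011, plus strand), the Il3-binding chain, was also highest in basophil-like cells, the blood cells that Il3 expands. They had 130 CPM (97 to 171), monocyte-like cells 55.1 CPM (49.1 to 61.6) and haematopoietic progenitor-like cells 38.4 CPM (29.8 to 48.7). Plasmacytoid dendritic-like cells, which in humans are recognised by this receptor, had only 27.9 CPM (16.5 to 44.1) here, with an interval that overlaps those of macrophage-like cells at 30.8 CPM and granulocyte-monocyte progenitor-like cells at 21.5 CPM. After thinning, 13.8% of basophil-like cells, 4.71% of monocyte-like cells, 0 of 85 plasmacytoid dendritic-like cells and 0 of 1656 erythroid-like cells had a UMI. At that depth of 1000 UMIs a count of 0 allows a share of cells with a UMI of up to 3.53% in the plasmacytoid dendritic-like class and up to 0.181% in the erythroid-like class, and it sets no limit on cells that carry the transcript. Unthinned, 17.6% of plasmacytoid dendritic-like cells (median depth 6544.0 UMIs) and 0.576% of erythroid-like cells (median depth 6226 UMIs) had an Il3ra UMI. Basophil-like and plasmacytoid dendritic-like cells together had 66.6 CPM and other named blood cells 15.7 CPM, a ratio of 4.23 (3.26 to 5.4). It was 6.76 as a mean over cells. With a mitochondrial limit of 5%, or without the second round of clustering, no plasmacytoid dendritic-like class was named, and basophil-like cells alone gave 11.8 and 8.44. Monocyte-like clusters ranged from 15 CPM, in the Cd300e-led patrolling cluster, to 75.1 CPM, in a Ccl2-led and Itga1-led one. Their Csf1r values were 757 and 118 CPM. The 15 CPM of Il3ra rests on few UMIs, as those 39 cells had a median of 3352 UMIs.

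Il7r (chromosome 15, 9505788 to 9530176, minus strand), the receptor that early lymphocytes need, was a lymphoid and plasmacytoid transcript. B lineage-like cells had 459 CPM (449 to 469), plasmacytoid dendritic-like cells 414 CPM (366 to 467) and T or NK-like cells 351 CPM (320 to 385), the middle value overlapping both others. Basophil-like cells had 199 CPM (157 to 249), classical dendritic-like cells 102 CPM (74.6 to 136) and haematopoietic progenitor-like cells 46.3 CPM (36.9 to 57.5), while neutrophil-like cells had 9.57 CPM. Thinned shares were 30% of B lineage-like cells, 29.4% of plasmacytoid dendritic-like cells and 19% of basophil-like cells, against 0.666% of neutrophil-like cells. B lineage-like cells exceeded all other named blood cells 15.1-fold (14.3 to 16), with 459 CPM against 30.3 CPM. B cell RNA was also present in basophil-like cells, where Cd79a had 161 CPM against 1120.7 CPM in B lineage-like cells, and in plasmacytoid dendritic-like cells, where it had 143 CPM. Its part in the Il7r values of these classes was not tested.

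T or NK-like clusters split on Il7r. It had 713 CPM in 53 cells led by Cd8b1 and Trac, and 570 CPM in 41 cells led by Icos, Ctla4 and Foxp3, genes of helper and regulatory T cells. It had 389 CPM in 84 cells led by Klrc1, Trdc and Cd3e, and 268 CPM in 39 cells led by Ncr1, Gzma and Cd3g. A cluster of 74 cells led by Klra4, Gzma and Eomes, genes of natural killer cells, had 35.4 CPM of Il7r. Kit had 27.3 CPM in that cluster and 4.46 CPM in the Cd8b1-led cells. All 5 T or NK-like clusters together held 18 Kit UMIs, so these Kit values rest on few counts and are not ranked here. An unnamed cluster of 17 cells led by Calca, Il5, Gata3 and Il13, genes of type 2 innate lymphoid cells, had 1091.9 CPM of Il7r and 66.2 CPM of Kit. That cluster raised too few of the listed markers to be named.

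Stages were then separated within the 3 large classes by stage genes, to see where along each lineage a receptor was carried. Among B lineage-like cells, 675 cells with 2 or more UMIs of the surrogate light chain genes Vpreb1 and Igll1, made before a B cell receptor exists, had 418 CPM of Il7r (405 to 432). Groups were exclusive and filled in the order surrogate light chain, Ighd or Fcer2a, Rag1 and Ms4a1. The 809 cells with Rag1, which rearranges immunoglobulin genes, thus had no Ighd or Fcer2a UMI. The 331 cells with Ms4a1 (CD20) had no Rag1 UMI either. Il7r had 772 CPM (740 to 805) in these Rag1 cells and 123 CPM (102 to 146) in these Ms4a1 cells. The 336 cells left over from all groups had 533 CPM (496 to 573). The 1357 cells with at least 1 UMI of Ighd or Fcer2a, genes of mature B cells, had 403 CPM (386 to 420), and surrogate light chain cells over these gave 1.04 (0.984 to 1.1). That gate is loose, as clusters showed. In 4 clusters with Ighd at 1000 CPM or more (445 cells), Il7r ran from 5.49 to 46.3 CPM, and in the other 26 clusters (3063 cells) from 46.4 to 895 CPM with a median of 401 CPM. Requiring at least 3 UMIs of Ighd and Fcer2a, a limit chosen after these values were seen, raised the ratio to 2.53. The highest cluster value, 895 CPM, was in 179 cells led by Nuak1, Etnk2 and Il2ra.

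Kit marked the earliest B lineage-like cells. It had 18.9 CPM (16.1 to 22) in surrogate light chain cells, 3.18 CPM in Rag1 cells and 1.84 CPM in Ighd or Fcer2a cells. In 3 clusters with Dntt, the enzyme that adds bases at V(D)J joins in pro-B cells, at 900 CPM or more (254 cells), Kit ran from 58.7 to 91.9 CPM. In the other 27 clusters it ran from 0 to 18.8 CPM, with 11 of them at 0 UMIs. The same 3 clusters had 224 to 310 CPM of Il7r, and 1.64 to 24.2 CPM of Flt3, against 160 to 483 CPM of Flt3 in haematopoietic progenitor-like clusters. Csf2rb had 21.6 CPM (13.5 to 32.7) in Ms4a1 cells and 3.8 CPM (2.6 to 5.36) in surrogate light chain cells. The thresholds that group clusters here and below were chosen after their values were seen.

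**Figure D2:**
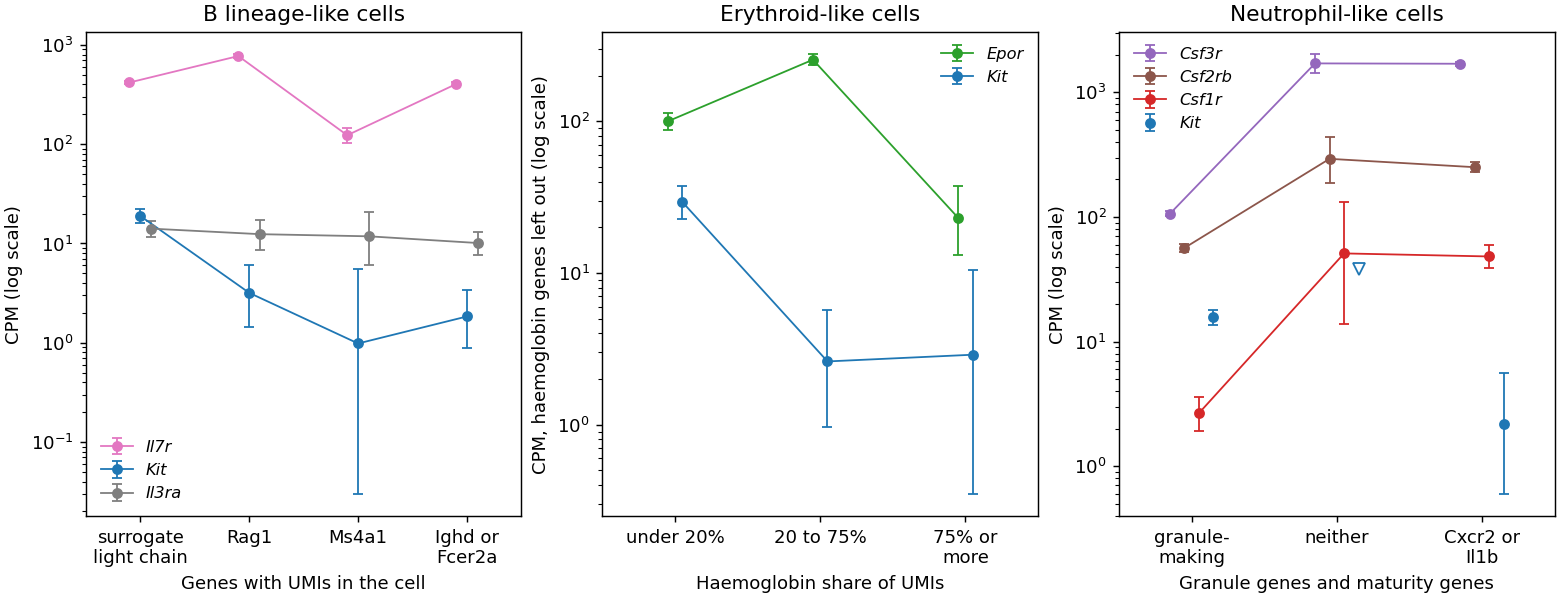
Receptor CPM (log scale) by stage within B lineage-like cells (left), erythroid-like cells (middle, with haemoglobin genes left out of the denominator) and neutrophil-like cells (right). Points are pooled CPM, bars are exact Poisson 95% intervals and the open triangle is the limit of 3 counts where 0 UMIs were seen. Il7r peaked at 772 CPM in Rag1 cells, Epor at 255 CPM in cells of 20 to 75% haemoglobin, and Csf3r was at 1698.5 CPM in Cxcr2 or Il1b cells.

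Among erythroid-like cells the haemoglobin share of UMIs served as the measure of maturity. Epor, counted with haemoglobin genes left out of the denominator, had 100 CPM (87.6 to 114) in 273 cells under 20% haemoglobin, 255 CPM (235 to 277) in 660 cells from 20 to 75%, and 23.1 CPM (13.2 to 37.5) in 804 cells at 75% or more. The ratio of the first to the last was 4.34 (2.62 to 7.73), or 8.44 in thinned cells. By this measure Epor peaked in the middle group. Over all UMIs the step was smaller, from 95.6 CPM (83.5 to 109) under 20% haemoglobin to 123 CPM (113 to 133) from 20 to 75%. Thinned shares overlapped, at 8.46% (5 to 13.2) and 9.98% (7.79 to 12.5) of cells. The 5 clusters of 30 to 60% haemoglobin with Cd79a under 200 CPM ran from 158 to 265 CPM of Epor over all UMIs. The 8 clusters at 80% haemoglobin or more had 0 to 6.36 CPM, with 6 of them at 0 UMIs, beside 0 to 7.93 CPM of Klf1, the transcription factor of red cell precursors. Kit had 28 CPM (21.7 to 35.7, 66 UMIs) in cells under 20% haemoglobin, against 0.382 CPM (2 UMIs) in cells at 75% or more, a ratio of 73.5 (19.5 to 619). Of the 66 UMIs, 58 came from 1 cluster of 31 cells with a median of 31195.0 UMIs, which had 57.6 CPM of Kit, 91.4 CPM of Epor and 0.484% haemoglobin. The other 242 cells under 20% haemoglobin had 8 Kit UMIs, or 5.94 CPM (2.56 to 11.7). As means over cells Kit had 11.2 CPM under 20% haemoglobin and 0.473 CPM at 75% or more, a ratio of 23.8. Haemoglobin dilutes other RNA, and with the 50 most abundant genes left out of the denominator the Kit ratio was 10.6. In thinned cells 0 Kit UMIs remained under 20% haemoglobin and 1 at 75% or more, which gives a ratio of 0 and no usable direction. A pair of erythroid-like clusters carried B cell RNA. One of 30 cells had 616 CPM of Cd79a and 0 Epor UMIs, and one of 28 cells had 394 CPM of Cd79a and 11.7 CPM of Epor.

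Among neutrophil-like cells, 1862 were making granule proteins, with at least 100 UMIs of Camp, Ltf and Ngp per 10000. A further 873 had fewer and a UMI of Cxcr2 or Il1b, genes of mature neutrophils. Csf3r had 1698.5 CPM (1639.2 to 1759.4) in Cxcr2 or Il1b cells and 106 CPM (101 to 111) in granule-making cells, a ratio of 16 (15.1 to 17). The 48 remaining cells, with few granule UMIs and no Cxcr2 or Il1b UMI, had 1709.8 CPM (1432.6 to 2025.1), an interval that holds the value of Cxcr2 or Il1b cells, and 80.5% of those deep enough to thin had a Csf3r UMI. After thinning, 74.6% of Cxcr2 or Il1b cells and 12.6% of granule-making cells had a Csf3r UMI, although the mature cells were shallower, with a median of 1899 UMIs against 6320 UMIs. Csf2rb had 251 CPM (228 to 275) in Cxcr2 or Il1b cells and 56.4 CPM (52.7 to 60.4) in granule-making cells. Csf1r had 48.2 CPM (38.7 to 59.4) in Cxcr2 or Il1b cells and 2.66 CPM (1.9 to 3.62) in granule-making cells. Kit went the other way, with 2.19 CPM (0.598 to 5.62) in Cxcr2 or Il1b cells and 15.6 CPM (13.7 to 17.8) in granule-making cells. Because granule and S100a8 transcripts take a large part of a granule-making cell's UMIs, fewer receptor molecules and more of other RNA cannot be told apart in CPM. With the 50 most abundant genes left out of the denominator the Csf3r ratio was 12.1.

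The clusters that make up the class showed the same order. The 6 neutrophil-like clusters with Camp under 1000 CPM (720 cells) had 1126.3 to 3357.2 CPM of Csf3r and 186 to 464 CPM of Csf2rb. The 15 clusters with Camp at 50000 CPM or more (1112 cells) had 38.2 to 108 CPM of Csf3r and 35.4 to 96.3 CPM of Csf2rb, and neither range overlaps. Kit ran from 0 to 5.11 CPM in the Camp-low clusters, 4 of them at 0 UMIs, and from 6.08 to 29.2 CPM in the Camp-high ones. The cluster highest in Csf3r held 202 cells led by Csf1, Cxcl2 and Hcar2, and also had the highest Csf2rb value, 464 CPM. It raised 1 of 9 neutrophil markers, Cxcr2, and took the name from the first-round cluster it was split from. Its S100a8 was 17072.8 CPM, against at least 34757.3 CPM in the other neutrophil-like clusters. Without it the highest Csf3r value was 2555.7 CPM.

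**Figure D3:**
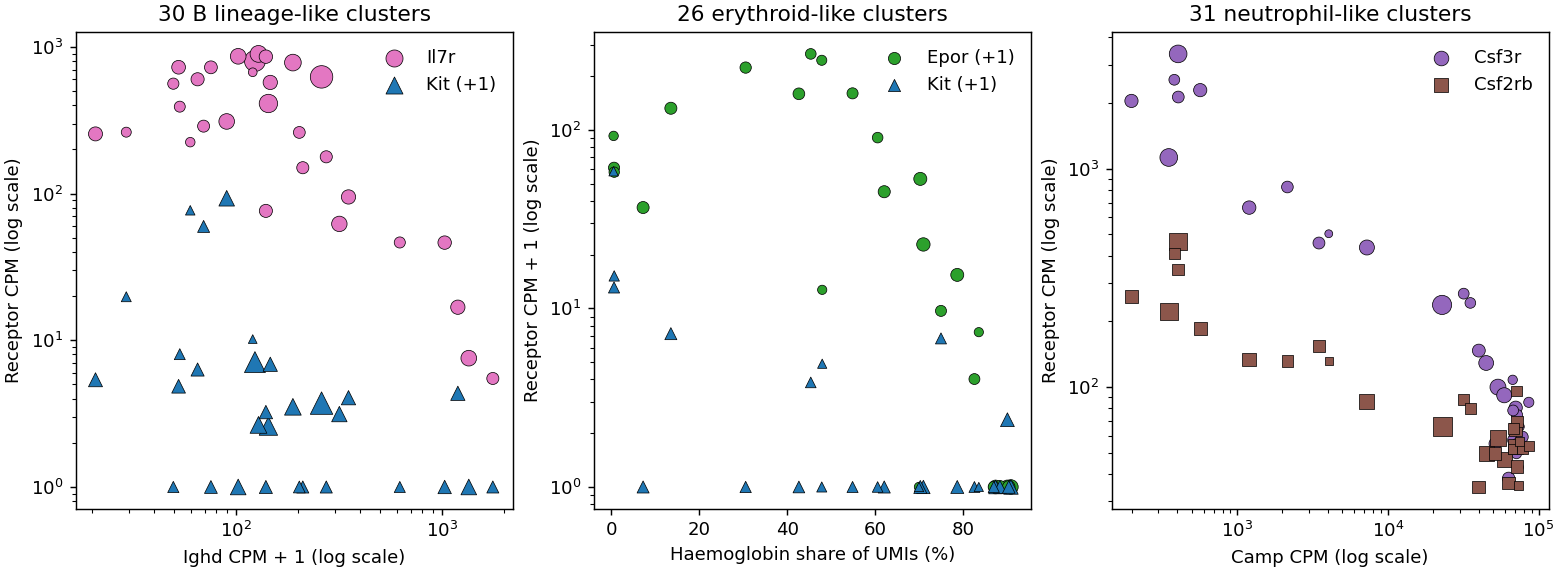
Receptor CPM (log scale) in each cluster of the 3 large classes, against Ighd CPM in B lineage-like clusters (left), haemoglobin share in erythroid-like clusters (middle) and Camp CPM in neutrophil-like clusters (right). Each point is a cluster and its size grows with its cells, and 1 is added where the axis or key says so. Il7r was lowest in the 3 clusters richest in Ighd, Epor was highest between 30 and 60% haemoglobin, and Csf3r was highest where Camp was lowest.

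The haematopoietic progenitor-like class was made of 3 clusters that differed in receptors. In 37 cells led by Myct1, Procr, Hlf and Mecom, genes of haematopoietic stem cells, Kit had 163 CPM, Flt3 185 CPM and Csf2rb 236 CPM. Il7r and Csf1r had 3.93 CPM each there, the value that 2 Epor UMIs also gave in that cluster. In 43 cells led by Cd34 and Hmga2, Kit had 79.4 CPM, Flt3 160 CPM, Csf2rb 141 CPM, Il7r 40.7 CPM and Csf1r 53.6 CPM. In 24 cells led by Slc35d3, Flt3 and Dntt, the last a gene of lymphoid priming, Flt3 had 483 CPM and was detected in all 24 cells, Il7r had 154 CPM, Kit 27.7 CPM and Csf2rb 55.4 CPM. Flt3 and Il7r were thus highest, and Kit and Csf2rb lowest, in the same 24 cells.

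Granulocyte-monocyte progenitor-like clusters kept Kit between 24.8 and 69.6 CPM, had at most 6.09 CPM of Flt3 and carried 37.4 to 93.7 CPM of Csf3r. One of the 7, with 39 cells led by Ifitm7, Ctsg and Cd34, had the highest Kit at 69.6 CPM, the highest Il3ra at 47 CPM, the highest Csf2rb at 63.5 CPM and 45.2 CPM of Csf1r, while the other 6 had 0 to 5.65 CPM of Csf1r. A pair of unnamed clusters were also rich in Kit. One had 32 cells led by Pf4, Itga2b and Vwf, genes of megakaryocytes and platelets, with 190 CPM of Kit, 2.04 CPM of Flt3 and 10.2 CPM of Epor. These Flt3 and Epor values rest on few counts, as all unnamed clusters together held 25 Flt3 and 17 Epor UMIs. The other had 35 cells led by Prg2, Ctsg and Mpo, with 90.4 CPM of Kit, and tied between both progenitor names.

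**Figure D4:**
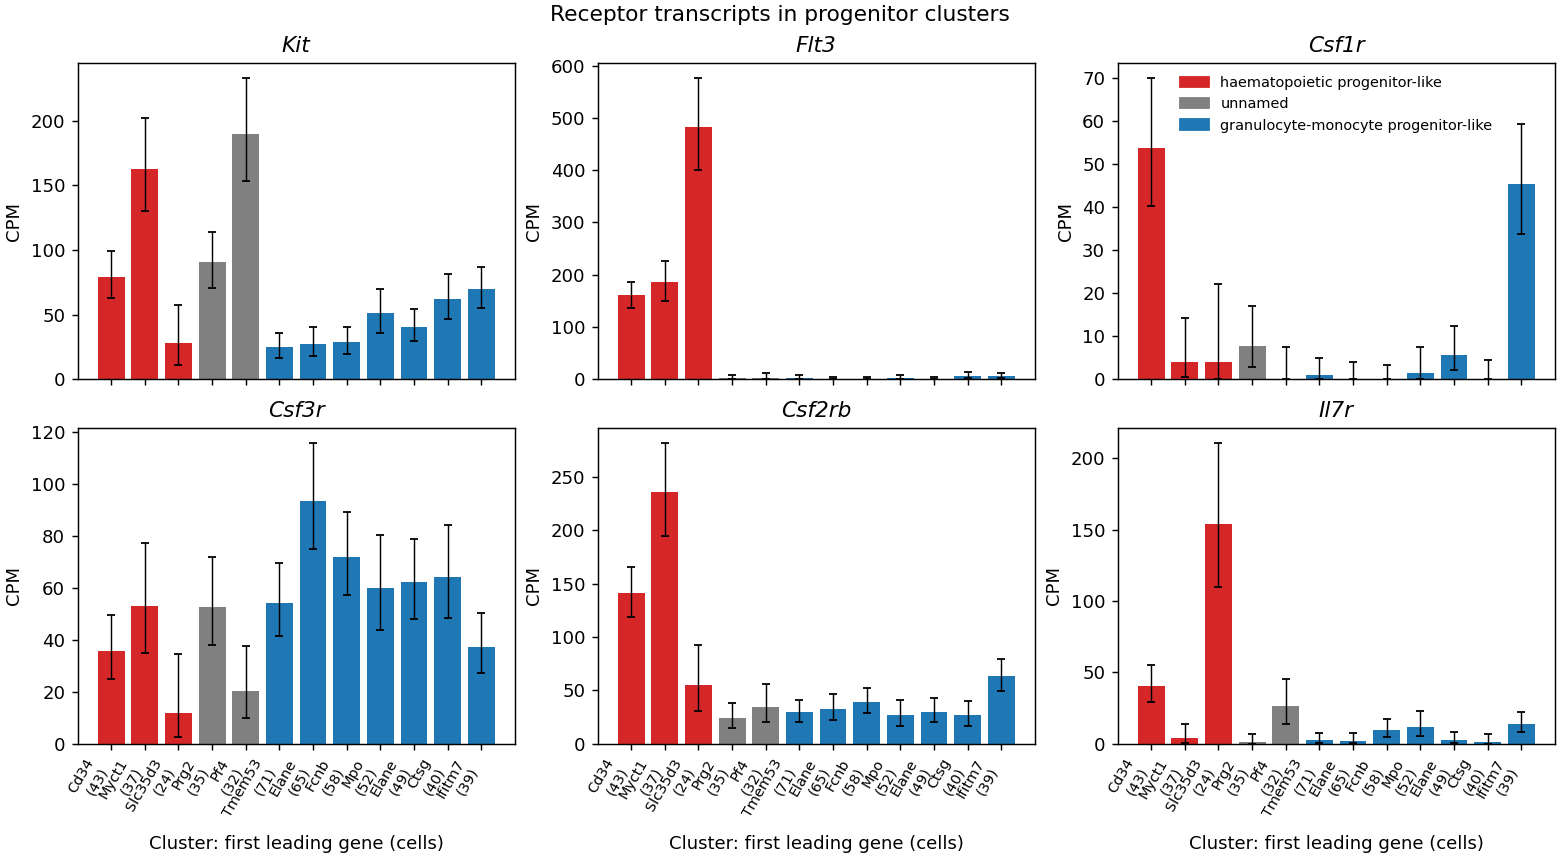
CPM of 6 receptors (one panel each, linear axes from 0) in 12 progenitor clusters, named by their first leading gene with the number of cells. Bars are pooled CPM, whiskers exact Poisson 95% intervals, and colours mark haematopoietic progenitor-like (red), unnamed (grey) and granulocyte-monocyte progenitor-like (blue) clusters. Kit was high in the Myct1-led and Pf4-led clusters at 163 and 190 CPM, and Flt3 and Il7r in the Slc35d3-led cluster at 483 and 154 CPM.

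Single progenitor cells carried several receptors. Of the 104 haematopoietic progenitor-like cells, 47 had both a Kit and a Flt3 UMI, 14 Kit alone, 34 Flt3 alone and 9 neither, and 47.5 cells with both would follow from the separate shares alone. Of 24 cells with Il7r, 23 also had Flt3, against 58 of the 80 cells without Il7r. Of 20 cells with Csf1r, 17 also had Csf2rb, against 43 of the 84 cells without, but the Csf1r cells were deeper, with a median of 29234.5 UMIs against 12122.0 UMIs. After thinning to 1000 UMIs, 2 or more of the 8 receptors were seen in 19.2% of classical dendritic-like cells, 19% of basophil-like cells, 18.8% of plasmacytoid dendritic-like cells, 12.6% of monocyte-like cells and 11.8% of haematopoietic progenitor-like cells. The share was 8.07% of neutrophil-like cells and 1.16% of B lineage-like cells, and it was 0 of 1656 erythroid-like and 0 of 287 T or NK-like cells at this depth.

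Lineage genes differed between progenitor cells with and without a receptor UMI. The 81 cells with Flt3 had 440 CPM of Dntt, 19 CPM of Gata2 and 3.52 CPM of Cpa3, the last a mast cell and basophil protease. The 23 cells without Flt3 had 5.74 CPM of Dntt, 161 CPM of Gata2, 238 CPM of Cpa3 and 20.1 CPM of Gata1. Cells with Il7r had 998 CPM of Dntt and 671 CPM of Mpo, the granule enzyme myeloperoxidase, against 163 CPM of Dntt and 1450.6 CPM of Mpo in cells without. Cells with Csf1r had 670 CPM of Irf8, a factor of monocytes and dendritic cells, 2174.3 CPM of Mpo and 9.06 CPM of Hlf, a stem cell factor. Cells without Csf1r had 157 CPM of Irf8, 862 CPM of Mpo and 164 CPM of Hlf. Cells with Kit had 1538.6 CPM of Mpo and 258 CPM of Dntt, against 763 CPM of Mpo and 540 CPM of Dntt in cells without Kit. Klf1 and Car1, genes of red cell precursors, had 0 UMIs on both sides of every split. Cells with a UMI were deeper than those without in all but the Epor split, which rests on 2 cells.

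For 5 classes every gene with at least 20 UMIs was compared with all other kept cells, unnamed ones included, and a gene was called at a ratio of 2 or more, or of 0.5 or less. In both progenitor classes together, 7.73% of 13615 genes were higher and 22.3% lower, and of the 8 receptors 2 were higher (Kit and Flt3) and 3 lower (Epor, Csf1r and Il7r). In neutrophil-like cells 9.36% of genes were higher and 50.1% lower, with 1 receptor higher (Csf3r) and 4 lower (Flt3, Epor, Csf1r and Il7r). In monocyte-like cells 12.6% of genes were higher and 21.7% lower, with 3 receptors higher (Csf1r, Csf2rb and Il3ra) and 3 lower (Kit, Epor and Il7r). In B lineage-like cells 36.7% of genes were higher and 20.2% lower, with 1 receptor higher (Il7r), 5 lower, and Kit at 0.507 and Il3ra at 0.674 of other cells within the limits. In erythroid-like cells 5.49% of genes were higher and 71.5% lower, with Epor higher and the other 7 lower. The receptors' median log2 ratio was -4.51 in erythroid-like cells, beside -1.75 over all genes, and -2.89 in B lineage-like cells, beside 0.67 over all genes.

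Partner and related receptors formed a list of 14 genes. In monocyte-like cells 6 were higher and 4 lower, beside 12.6% of all genes higher and 21.7% lower. Il6ra, the Il6-binding chain, was 12.3-fold higher (196 CPM against 16 CPM) and Il10ra 4.84-fold higher. In B lineage-like cells 4 were higher and 4 lower, beside 36.7% of all genes higher and 20.2% lower. Il5ra was 41-fold higher there (5.39 CPM against 0.132 CPM) and Il2ra, a pre-B cell surface gene, 13-fold higher. Neutrophil-like cells had 2 higher, Csf2ra, the Csf2-binding chain, 3.13-fold and Crlf2 2.05-fold, and 6 lower. Of all genes, 9.36% were higher and 50.1% lower in these cells. Progenitor cells had 0 higher and 6 lower, beside 7.73% of all genes higher and 22.3% lower. Among the 6 was Il2ra at 0.8 CPM against 23 CPM in other cells. All 14 were lower in erythroid-like cells, where 71.5% of all genes were, and the list's median log2 ratio was -3.69 beside -1.75 over all genes. Across classes Csf2ra, which needs Csf2rb to signal, had 230 CPM in classical dendritic-like cells, 217 CPM in monocyte-like cells and 172 CPM in neutrophil-like cells, but 15.3 CPM in basophil-like cells, where Csf2rb was highest.

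Most signal transduction genes stayed inside these limits. Of 19 Janus kinase, Stat, adaptor and phosphatase genes, 18 were within them in progenitor cells, 17 in neutrophil-like cells, 17 in B lineage-like cells and 15 in monocyte-like cells. Those past them were Lyn in progenitor cells (0.483 of the level in other cells), Stat5a and Pik3r1 in neutrophil-like cells (0.274 and 0.409), Inpp5d and Pik3cd in B lineage-like cells (3.82-fold and 2.71-fold higher), and 4 genes in monocyte-like cells led by Gab2 and Tyk2 (3.76-fold and 2.86-fold higher). Of all genes, 7.73% were higher and 22.3% lower in progenitor cells, and 9.36% and 50.1% in neutrophil-like cells. Those shares were 36.7% and 20.2% in B lineage-like cells, and 12.6% and 21.7% in monocyte-like cells. In erythroid-like cells 12 of the 19 were lower, beside 71.5% of all genes, with Stat3 the most at 5.58 CPM against 119 CPM. The list's median log2 ratio there was -2.48, beside -1.75 over all genes. Of 13 feedback and response genes, 4 were higher and 4 lower in monocyte-like cells, and 5 higher and 3 lower in B lineage-like cells. In neutrophil-like cells 1 was higher and 8 lower, and in progenitor cells 1 was higher and 5 lower. The shares of all genes in these classes are those given above. Socs3, an inhibitor of Il6 family and Csf3 receptors, was 14.9-fold higher in monocyte-like cells. Socs2 and Socs1 were 12.2-fold and 4.75-fold higher in B lineage-like cells. Osm was 4.75-fold higher in neutrophil-like cells and Myc 2.86-fold higher in progenitor cells. The 2 lowest were Socs2 and Myc in neutrophil-like cells (0.0432 and 0.1 of the level in other cells). They were Bcl2l1 and Socs2 in progenitor cells (0.15 and 0.154), and Osm and Socs3 in B lineage-like cells (0.0508 and 0.0838). In monocyte-like cells they were Socs2 and Bcl2l1 (0.083 and 0.2). Bcl2l1, a survival gene downstream of Epor, was 7.08-fold higher in erythroid-like cells (279 CPM against 39.5 CPM). In erythroid-like cells Bcl2l1 was the only 1 of the 13 that was higher, and 10 were lower, beside 5.49% of all genes higher and 71.5% lower.

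The ligands were scarce in this suspension. Epo, Il3 and Thpo had 0 UMIs in all classes. Kitl, stem cell factor, had 75.5 CPM in osteoblast-like cells (50.6 to 108, 29 UMIs) and 43.5 CPM in macrophage-like cells (24 UMIs), against at most 4.43 CPM in any other class. Il7 had 2 UMIs in osteoblast-like cells (5.21 CPM). Csf1 had 296 CPM in basophil-like cells (245 to 355, 116 UMIs) and 25.2 CPM in neutrophil-like cells, Flt3l had 35.8 CPM in basophil-like cells and 26.9 CPM in T or NK-like cells, and Csf3 reached 6 UMIs in monocyte-like cells. Of 82 Il5 UMIs, 80 were in unnamed clusters, and Il5 led the 17-cell cluster named above for its Il7r. Tslp had 38 UMIs in progenitor cells, 37 of them in the granulocyte-monocyte class, and was 7.27-fold higher in progenitor cells than in all other cells.

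**Figure D5:**
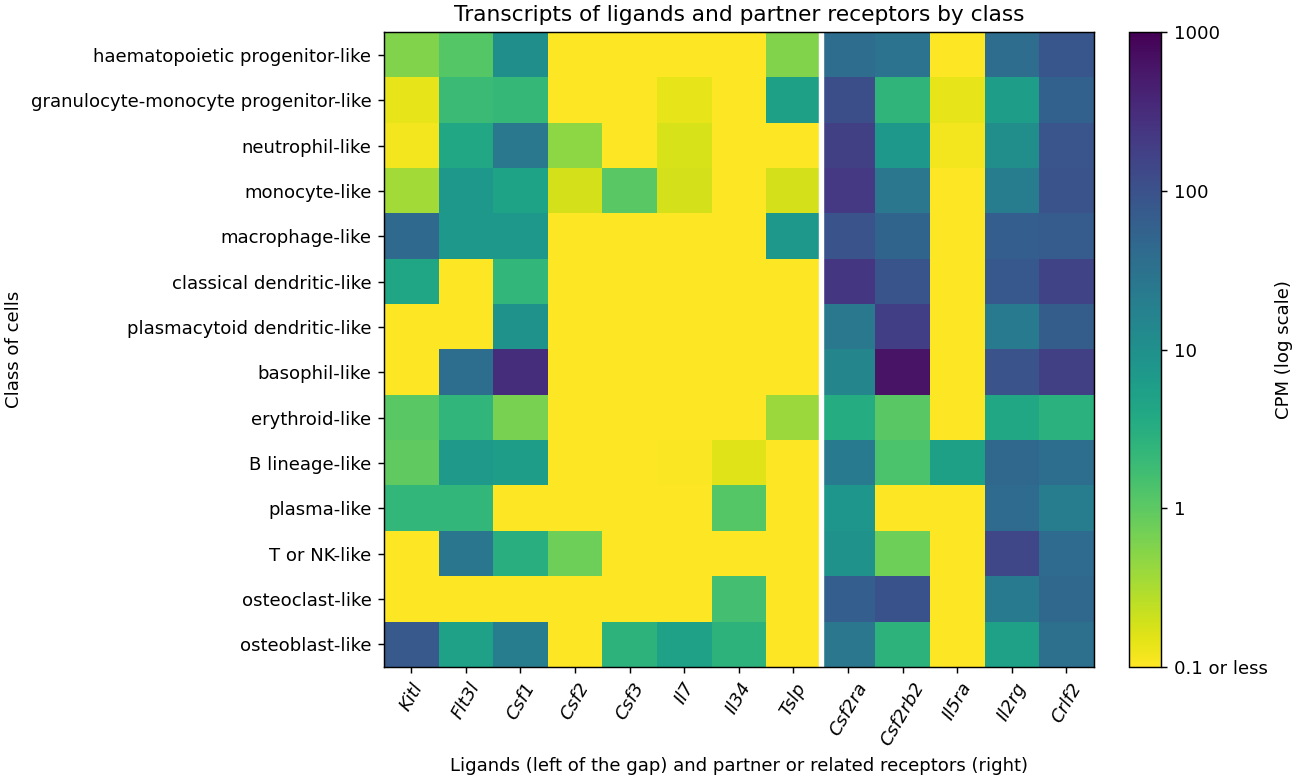
CPM (colour, log scale, 0.1 CPM or less in yellow) of 8 ligands (left of the white gap) and 5 partner or related receptors (right) in 14 classes of cells (vertical axis). The columns of Csf2, Csf3, Il7, Il34 and Tslp are yellow or nearly so in most classes, Csf1 reached 296 CPM in basophil-like cells and Kitl 75.5 CPM in osteoblast-like cells, while Csf2rb2 was highest in basophil-like cells at 626 CPM.

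Over the 27 clusters of at least 50 cells from the first of the 2 rounds of clustering, 10297 genes were ranked by Pearson's r of log2(CPM + 10) with each receptor. These first-round clusters are coarser than the 136 used above, and one of 221 cells raised markers of both haematopoietic progenitors and plasmacytoid dendritic cells. The ranking depends on the clusters: over the 90 final clusters of at least 50 cells, a ranking added after the first was seen, only 3 of the 24 genes were again among the 3 nearest of their receptor (Cd68 for Csf1r, Cd300lf for Csf3r and Ifitm2 for Csf2rb). The clusters come from 1 library and differ in depth and RNA content, so r only describes likeness of pattern. Over the first-round clusters the closest genes to Epor were Nipa1 (r = 0.973), Sh3tc2 (0.970) and Fam109b (0.964), and to Csf3r Fam217b (0.942), Arl11 (0.938) and Cd300lf (0.936). For Csf1r they were Stard9 (0.942), Pid1 (0.930) and Cd68 (0.905), a lysosomal macrophage protein, and for Il7r Ptprcap (0.932), Zkscan17 (0.932) and Atp1b1 (0.929). Flt3 was closest to Upb1 (0.926), Ppfia4 (0.899) and Tmem119 (0.873), and Csf2rb to Ifitm2 (0.906), Camk1 (0.899) and Slc41a3 (0.896). Il3ra followed Hsd17b4 (0.872), Fam46a (0.866) and Pfkp (0.849), and Kit had the least close match, with Cryzl2 (0.858), Nbdy (0.825) and Igfbp4 (0.812) as its nearest genes. No receptor was among the 3 nearest genes of another.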

How the data were processed

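For cells of tibial trabecular bone, the authors deposited UMI counts by gene and barcode as a single unnormalized matrix, which its header credits to Cell Ranger 3.1.0. Seurat 3 and mm10 appear in the submitters' processing notes, without a stated role for Seurat. The 4 records share 1 barcode suffix and were used as 1 library. A second deposited matrix of added reporter and spike-in sequences was not used here.

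Barcodes under 500 UMIs, under 200 genes or over 10% mitochondrial UMIs were left out, and 522 of 11007 (4.74%) were removed as doublets by Scrublet in scanpy 1.11.5. Cells were clustered on 30 principal components of 2000 variable genes with 15 neighbours and shared-neighbour weights, by leidenalg 0.10.2 at resolution 1.0 and then again within clusters of at least 100 cells. A marker was raised when its CPM was 2 times that of other cells and 10% of cells had it, and a name needed 3 raised markers. Ties, another type's leading genes and low depth left a cluster unnamed. Parts of a named cluster with few markers kept its name. Naming rules and the second round were set after clusters had been seen. The receptors, gene lists and comparisons were chosen with earlier results of these data known. 1 gene of the list of partner and related receptors is not reported here.

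Intervals are exact Poisson, Clopper-Pearson or conditional binomial at 95%. A count of 0 allows 3 counts, a limit below the upper end of the exact interval. For Kit in osteoclast-like cells these were 4.75 and 5.84 CPM. Gene ratios were called at 2 or 0.5, and 0.5 counts per side were added for log2 medians only. The text names all receptors, the 3 genes nearest each receptor and some of 14 lineage genes. It also names some, not all, of the 2 highest and 2 lowest called genes of each list in a class. Ligands and partner receptors are also named for their levels across classes. Other genes are named as leading or marker genes of a cluster or for a count of 5 or fewer, after their values were seen. Gene positions come from a GENCODE annotation and promoters from RefSeq, both of GRCm38; promoters of chromosome 18 were not used. Ratios were tested on simulated data. Code ran in Python 3.11.15 with matplotlib 3.10.9, pandas 2.3.3, scipy 1.17.1, numpy 2.4.6, igraph 0.11.9, scikit-learn 1.9.0 and anndata 0.12.19.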

Additional observations from a re-analysis of the deposited data

How the results depend on the processing

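The 12 ratios between classes or stages were recomputed under 10 planned settings and 4 chosen after seeing the data, 150 values in all. Of these, 149 kept the direction, 85 lay within the interval of the reported ratio and 64 outside it. The exception was Kit by erythroid stage in thinned cells, at 0 from 0 against 1 UMIs. For Il7r by B stage the reported interval (0.984 to 1.1) holds 1. Its 13 recomputed values, from 1.03 to 2.53, thus had no settled direction to keep. Settings that gave no value are not among the 150. The causes were not tested except where a count shows one. With a mitochondrial limit of 5% no class took the haematopoietic progenitor name, so Flt3 had no value and Kit in progenitors, from granulocyte-monocyte progenitor-like cells alone, was 2.57. Epor was then 21.8, Csf1r 62.6, Csf3r 4.49 and Csf2rb 6.99 (with no osteoclast-like class). Il7r was 19.9, Il3ra 11.8 (basophil-like cells alone), Il7r by B stage 1.94 and Csf3r by neutrophil stage 11.6. The B lineage-like class held 595 cells at that limit, against 3508 in the main setting. Il7r in B lineage-like cells was 208 CPM there, against 459 CPM. With a limit of 30%, Flt3 was 16.9, Csf3r 9.28, Csf2rb 18, Il7r by B stage 1.47 and Csf3r by stage 12.6. With at least 1500 UMIs per cell, Csf1r was 52, Csf3r 7.28, Csf2rb 16 (with no osteoclast-like class), Il7r 12.5 and Csf3r by stage 14.3. With doublets kept, Kit was 6.75, Csf3r 8.61, Csf2rb 16.2 and Il7r 11.7. At resolution 2.0, Csf3r was 11.6, Il7r 16.2 and Il7r by stage 1.23. With all genes allowed among the variable genes, Csf1r was 35.7, Csf3r 9.14 and Csf3r by stage 12.4. As means over cells, Kit was 6.79, Flt3 39.1, Epor 54.8, Csf1r 35.2, Csf3r 38, Il7r 12.1, Il3ra 6.76, Il7r by stage 1.4 and Csf3r by stage 13.8. Without the 50 most abundant genes in the denominator, Flt3 was 23.3, Epor 174, Csf1r 22.7, Csf3r 15.1, Il7r 10.8, Kit by erythroid stage 10.6 and Csf3r by stage 12.1. In thinned cells, Kit was 9.71, Flt3 61.1, Epor 58.8, Csf1r 43.6, Csf3r 38, Csf2rb 28.5, Il7r 11.6, Il7r by stage 1.33, Epor by stage 8.44 and Csf3r by stage 13.1. Among settings chosen later, clustering without a second round also left no haematopoietic progenitor-like class and no Flt3 value, and gave Kit 4.41 (granulocyte-monocyte progenitor-like cells alone), Csf2rb 10.4 (with no osteoclast-like class) and Il3ra 8.44 (basophil-like cells alone). A second round at resolution 0.5 gave Kit 7.18. Counting unnamed cells among the others gave Kit 4.42, Csf1r 23, Csf3r 9.89 and Il7r 12.8, and at least 3 Ighd and Fcer2a UMIs gave Il7r by B stage 2.53. No paired analysis was possible because the 4 records form 1 library of 1 group, and none could be left out. Depth limits classes of few UMIs most, such as osteoblast-like and macrophage-like cells with medians of 920 and 963 UMIs.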
